A study of Mus musculus with 6 samples.

Results

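The Rag GTPases, the folliculin complex and the TFEB family of transcription factors were examined as one set of 10 genes in mouse breast cancer cells: Rraga, Rragb, Rragc, Rragd, Flcn, Fnip1, Fnip2, Tfeb, Tfe3 and Mitf. All probe sets that the platform annotation assigns to exactly one of these symbols were taken, which gave 16 of 45037 probe sets that are not controls. They read 9 of 18193 genes, and Rragb, which is the single symbol of no probe set in the annotation table, was not analysed here. The cells were sorted into CD24+CD29+ cells (3 arrays) and CD24-CD29- cells (3 arrays). CD24 is a glycoprotein of the cell surface, and CD29 is an integrin chain, beta-1. The labels call both groups breast cancer stem cells, and both came from culture in DMEM with fetal bovine serum. No strain, cell line or animal age was given in the sources used here, and the sample sets were described as independent and biological without saying whether they were separate sorts, cultures or animals, so the spread between arrays may be partly technical.

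Cells sense amino acids at the surface of the lysosome. There RagA or RagB pairs with RagC or RagD, and the pair, held by the Ragulator scaffold, recruits the kinase complex mTORC1 when amino acids are present, so that Rheb can activate it. Folliculin, bound to Fnip1 or Fnip2, makes RagC and RagD hydrolyse GTP, and in that state they present TFEB, TFE3 and MITF to mTORC1, whose phosphorylation keeps these factors in the cytoplasm. When they enter the nucleus they bind E-box DNA and raise genes of lysosomes and autophagy, and Rragd and Flcn are themselves known target genes of this family. Loss of folliculin is known for kidney tumours in human carriers.

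Expression values were on the log2 scale, made by RMA from Affymetrix Mouse430_2 arrays, and no detection calls came with them. A difference is always CD24+CD29+ minus CD24-CD29- on that scale, with the standard error (SE) of a limma fit over all genes. Each gene was read through 1 main probe set, its brightest, where _x_at probe sets, which can bind related transcripts, were used only if no other existed. The median of an array was 6.23 to 6.29 and its lower quartile 5.20 to 5.41. Array pairs correlated over genes, which are not independent replicates, at r = 0.998 to 0.999 within a group and 0.974 to 0.978 between groups. Itgb1, the gene of CD29, stood at 10.99, 10.89 and 10.93 in CD24+CD29+ cells, against 10.03, 10.09 and 10.07 in CD24-CD29- cells. Cd24a stood at 13.02, 12.98 and 12.98 in CD24+CD29+ cells and was also abundant in CD24-CD29- cells, at 12.81, 12.81 and 12.75. However, 1 of 6 Itgb1 and 1 of 3 Cd24a probe sets were lower, at an adjusted p under 0.05 over all probe sets (limma). Of 9 epithelial markers 3 were higher, among them Krt14 (1.99-fold) and Krt5 (1.57-fold), and 4 lower, among them Krt18 (1.34-fold). None lay under the lower quartile, and their mean was 12.45 to 12.50 on CD24+CD29+ arrays and 12.36 to 12.39 on CD24-CD29- arrays.

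The set was chosen by the pathway with the large difference of Rragd in these same data already known, so the differences of its members are a description and not a test. The members did not move as a block. Rraga, Rragc and Tfe3 were higher in CD24+CD29+ cells, Rragd, Flcn, Fnip1 and Mitf were lower, and Fnip2 and Tfeb did not pass the threshold, an adjusted p of 0.05 in limma over all genes. Thus 7 of 9 members passed, where 70.8% of all genes did. The 3 members that were higher compare with 34.4% of all genes higher, and the 4 that were lower with 36.5% lower. Rragd alone differed by at least 2-fold, a size that 4.67% of all genes reached together with the threshold. The groups did not overlap for 7 members, as for 73.6% of all genes. The median difference was -0.14 over the members and -0.04 over all genes. The split of all genes depended on level: without the dimmest 40%, which leaves all 9 members, 5740 of 10916 genes were higher and 2966 lower, with a median of 0.15. In bulk RNA, fewer cells with a transcript and less of it per cell cannot be told apart.

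**Figure D1:**
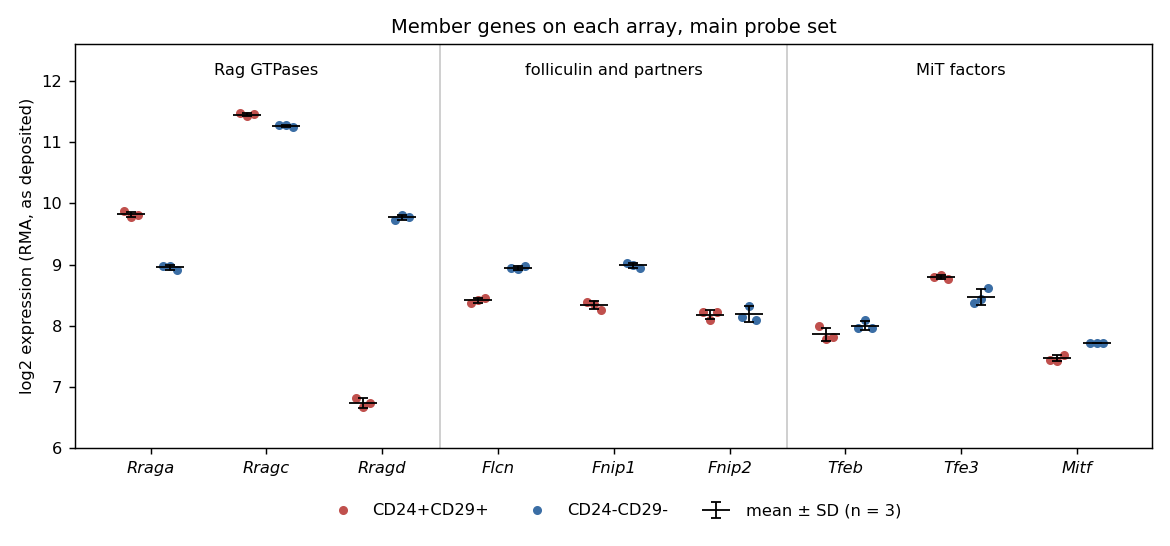
Log2 expression of the 9 member genes on their main probe sets, with 1 point per array, CD24+CD29+ left of CD24-CD29- for each gene, and black marks for the mean ± SD of 3 arrays. Rragd stands near 6.7 in CD24+CD29+ cells and near 9.8 in CD24-CD29- cells, while Fnip2 and Tfeb overlap; levels of different genes come from different probes and are not comparable.

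The measured Rag GTPases went in different directions. Rragd encodes RagD, a partner of RagA or RagB, and it read 6.83, 6.67 and 6.74 in CD24+CD29+ cells, against 9.73, 9.81 and 9.77 in CD24-CD29- cells. Every CD24+CD29+ array lay far below every CD24-CD29- array. The means were 6.75 ± 0.08 and 9.77 ± 0.04 (SD, n = 3 each), a difference of -3.02 (SE 0.05), or 8.13-fold lower. Ordered from the lowest difference, Rragd had rank 8 of 18193 genes, and by absolute difference rank 11. The CD24+CD29+ level lay only a little above the median probe set, where background compresses differences, so the fold may be understated. However, dimmer probe sets of Rragd gave smaller differences, -0.54 and -0.22, so the size rests on the probe set used.

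Rraga, which encodes RagA, went the other way. It read 9.87, 9.77 and 9.81 in CD24+CD29+ cells and 8.98, 8.98 and 8.91 in CD24-CD29- cells, without overlap. Its difference was 0.86 (SE 0.05), or 1.82-fold higher, the largest positive one among the members. Rragc encodes RagC, the closest relative of RagD, and read 11.47, 11.42 and 11.46 in CD24+CD29+ cells, against 11.28, 11.27 and 11.25 in CD24-CD29- cells. The groups were again apart, but by only 0.18 (SE 0.04), or 1.14-fold higher. The pair of RagC and RagD genes thus had differences of opposite sign on the deposited scale, and also under each of 4 other scalings.

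The promoters of Rragd and Rragc are shown because these related genes differed in sign, and that of Fnip1 because it holds the same E-box as Rragc. Each line is the 250 bases before the annotated start in the RefSeq promoter table of GRCm38.p6, 5′ to 3′, and capitals mark the E-box CACGTG. Rragd lies at chr4:32982748-32982997, Rragc at chr4:123917183-123917432 and Fnip1 at chr11:54437929-54438178, all on the plus strand.
Rragd: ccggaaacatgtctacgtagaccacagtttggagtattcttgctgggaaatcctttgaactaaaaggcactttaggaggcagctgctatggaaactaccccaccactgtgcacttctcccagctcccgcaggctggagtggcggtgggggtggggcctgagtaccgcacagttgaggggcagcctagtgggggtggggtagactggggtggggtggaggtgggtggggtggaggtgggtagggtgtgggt
Rragc: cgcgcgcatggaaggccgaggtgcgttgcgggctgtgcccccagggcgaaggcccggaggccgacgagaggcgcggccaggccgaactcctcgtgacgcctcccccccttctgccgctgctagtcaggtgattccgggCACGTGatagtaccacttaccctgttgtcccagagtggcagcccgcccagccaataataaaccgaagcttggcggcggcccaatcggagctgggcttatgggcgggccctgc
Fnip1: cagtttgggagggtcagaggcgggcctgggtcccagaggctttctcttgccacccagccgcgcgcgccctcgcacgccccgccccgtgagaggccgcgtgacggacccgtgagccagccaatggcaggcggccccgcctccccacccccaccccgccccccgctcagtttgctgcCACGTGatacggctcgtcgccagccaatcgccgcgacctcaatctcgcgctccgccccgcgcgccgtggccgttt

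All 10 members had a window in that table, 15 windows in all because Tfeb, Tfe3 and Mitf have several starts. CACGTG, which reads the same on both strands, begins 112 bases before the start of Rragc and 75 bases before that of Fnip1, and these letters are not in the window of Rragd. Of the 15 member windows 3 held it, those of Rragc, Fnip1 and Rragb, against 6.02% of 32851 windows of all genes. These 3 windows were 68.0%, 73.6% and 61.6% G and C, beside a median of 52.4% over all windows. The longer form TCACGTG, searched on both strands and overlapping CACGTG, was in the windows of the same 3 members and in 3.13% of all windows. TCATGTG, the form bound by MITF in pigment genes, was in no member window and in 3.25% of all. Rragc and Fnip1 share the E-box. On the deposited scale Rragc was higher in CD24+CD29+ cells and Fnip1 lower. Any part of the E-box in these differences was not tested. A match of letters is a description of the window and does not show binding.

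Folliculin and its partner Fnip1 were lower in CD24+CD29+ cells on the deposited scale. Flcn read 8.37, 8.42 and 8.45 in CD24+CD29+ cells and 8.94, 8.92 and 8.97 in CD24-CD29- cells. No array of one group reached the range of the other, and the difference was -0.53 (SE 0.04), or 1.44-fold lower. Its brightest probe set, an _x_at one, showed a larger gap, at 9.05, 8.86 and 8.83 in CD24+CD29+ cells against 10.18, 10.14 and 10.14 in CD24-CD29- cells, a difference of -1.24 (SE 0.07). The size for Flcn therefore rests on the probe set used, from 1.36-fold to 2.36-fold lower over its 3 probe sets.

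Fnip1 encodes a scaffold that holds folliculin and the kinase AMPK. On its main probe set it read 8.39, 8.35 and 8.26 in CD24+CD29+ cells, against 9.02, 9.0 and 8.94 in CD24-CD29- cells, a difference of -0.65 (SE 0.05), or 1.57-fold lower. The other 2 probe sets of Fnip1 gave much smaller differences, -0.17 (SE 0.08) and -0.18 (SE 0.07), of which the -0.17 did not pass and its groups overlapped. The mean over the 3 probe sets gave -0.33. Fnip2, the alternative partner, read 8.23, 8.10 and 8.23 in CD24+CD29+ cells and 8.15, 8.33 and 8.09 in CD24-CD29- cells. Its groups overlapped fully, with a difference of -0.01 (SE 0.07).

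The transcription factors differed little, and their RNA says nothing about where the proteins lie in the cell. Tfeb read 7.99, 7.79 and 7.81 in CD24+CD29+ cells, against 7.96, 8.10 and 7.96 in CD24-CD29- cells. The groups overlapped through 1 CD24+CD29+ array, and the difference of -0.14 (SE 0.07) did not pass, but passed at -0.20 without that array, replicate 1. Tfe3, a broadly expressed relative, read 8.80, 8.83 and 8.77 in CD24+CD29+ cells and 8.38, 8.43 and 8.61 in CD24-CD29- cells. The arrays were apart by 0.33 (SE 0.07), or 1.25-fold higher, and the CD24-CD29- arrays were the more spread. Under quantile normalization and cyclic loess the Tfe3 difference was 0.13 and 0.12 and did not pass.

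Mitf, the factor best known from pigment cells and osteoclasts, read 7.45, 7.43 and 7.53 in CD24+CD29+ cells, against 7.72 on each array of CD24-CD29- cells. The small gap of -0.25 (SE 0.04), or 1.19-fold lower, exceeded the narrow spread of either group. A dimmer Mitf probe set gave -0.12 (SE 0.08), with overlapping groups, and did not pass. Tfec, the remaining relative of these factors and not a member, was close to the bottom of the range, at 5.19, 5.06 and 5.18 in CD24+CD29+ cells and 4.67, 4.76 and 4.85 in CD24-CD29- cells. All of these values lay under the lower quartile of the arrays.

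Over all probe sets of the members, 11 of 16 passed in a fit of all probe sets, where 63.9% of them did. Of the 16, 3 were positive and 13 negative, and the 3 positive ones were the single probe sets of Rraga, Rragc and Tfe3. For each of the 4 members with several probe sets (Rragd, Flcn, Fnip1 and Mitf), all had the same sign. Their sizes did not match. The dim probe sets of Rragd read 5.20, 5.24 and 5.19 in CD24+CD29+ cells against 5.85, 5.82 and 5.58 in CD24-CD29- cells, and 5.01, 5.44 and 5.59 against 5.63, 5.58 and 5.49. The brighter of these differed by -0.54 (SE 0.08) and the dimmer by -0.22 (SE 0.13), which did not pass, so the mean over the 3 probe sets of Rragd was -1.26 in place of -3.02. Probe sets of 1 gene share its RNA and are not replicates.

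**Figure D2:**
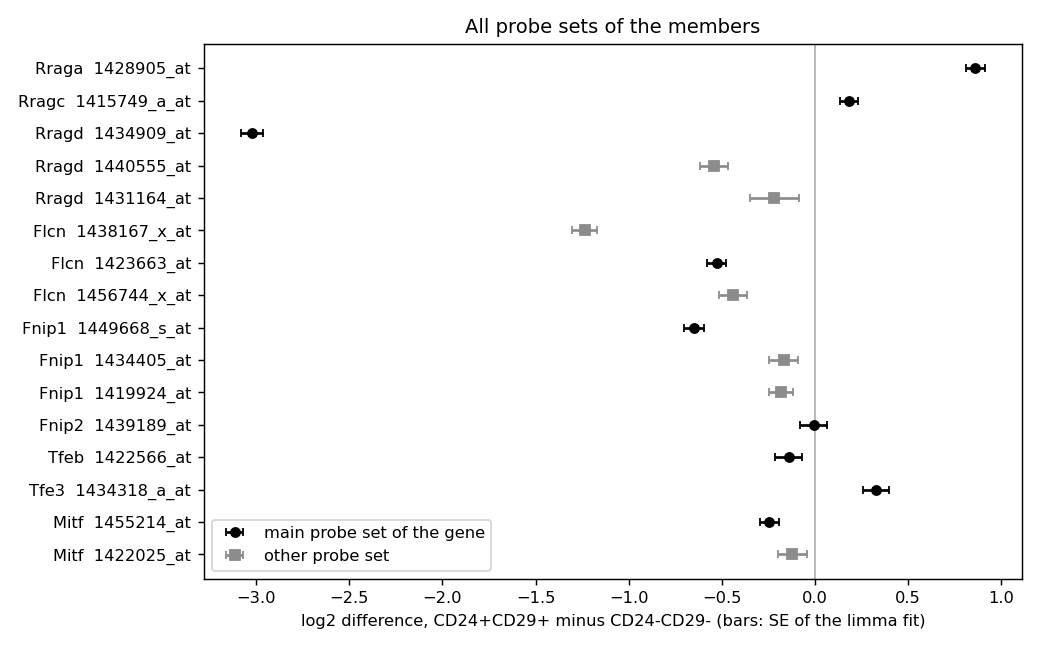
Log2 difference, CD24+CD29+ minus CD24-CD29-, of the 16 member probe sets, with bars for the SE of the limma fit, circles for the main probe set of a gene and squares for others. Positive values occur for Rraga, Rragc and Tfe3, and the probe sets of Rragd range from -3.02 to -0.22.

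**Figure D3:**
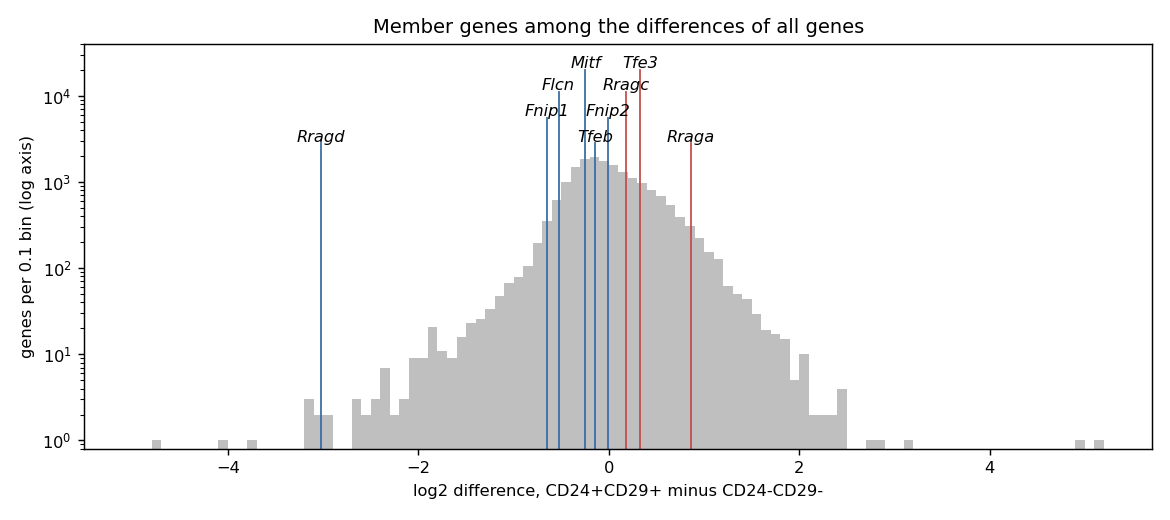
Histogram of the log2 differences, CD24+CD29+ minus CD24-CD29-, of 18193 genes in bins of 0.1 on a log count axis, with vertical lines at the 9 members. Rragd lies at -3.02 in the far lower tail and the other members lie nearer the centre, between -0.65 and 0.86. Of these, Rraga has rank 889 from the highest difference and Fnip1 rank 827 from the lowest.

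Directions depend on how the arrays are put on one scale. Poly-A control RNAs for this kind of array are normally spiked into a sample before labelling, and the median difference of their 24 probe sets was -1.17. Whether that difference reflects the amount of control RNA, of sample RNA or of mRNA in the sample was not tested. With the arrays scaled to these controls the median over all genes was 1.13, in place of -0.04. Of 18193 genes 17902 were then higher and 148 lower. Among the members 8 were higher and 1 lower, in place of 3 and 4. Rragd was the member that stayed lower, at -1.85 (SE 0.05), while Flcn, Fnip1, Mitf, Tfeb and Fnip2 turned positive, at 0.64, 0.52, 0.92, 1.03 and 1.16. Under quantile normalization and under cyclic loess 2 members were higher and 6 lower. Tfeb (-0.33 under both) and Fnip2 (-0.21 under both) then passed as lower. Of all genes 5573 were higher and 6212 lower under quantile normalization, and 5590 and 6202 under cyclic loess. Lower values given here are therefore relative to the other genes, and only Rraga, Rragc, Tfe3 and Rragd kept their sign under all 5 scalings.

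**Figure D4:**
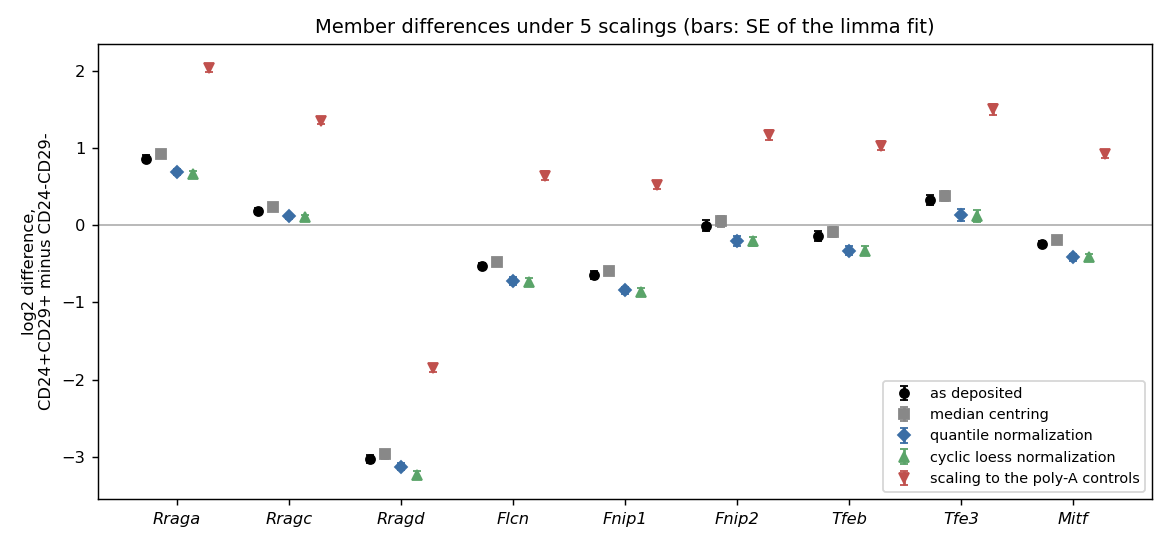
Log2 difference, CD24+CD29+ minus CD24-CD29-, of each member as deposited and after median centring, quantile normalization, cyclic loess and scaling to the poly-A controls, with bars for the SE of the limma fit. Rragd stays negative throughout, from -3.23 to -1.85, whereas Flcn, Fnip1, Fnip2, Tfeb and Mitf are positive after scaling to the poly-A controls.

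The other genes of amino acid sensing were mixed. Lists of the complexes around the Rag GTPases, of mTORC1 and its growth factor branch, of AMPK, of proteins that act on TFEB and of Tfec held 63 genes, of which 58 were measured. Of these, 27 were higher, 12 lower and 19 did not pass, and the median difference was 0.10, beside -0.04 over all genes. Without the dimmest 40% of genes, 54 of the 58 were left, with a median of 0.06 and 69.4% of their calls higher, beside a median of 0.15 and 65.9% of calls higher over all genes left. The split was 22 and 21 after quantile normalization, 24 and 20 after cyclic loess, and 58 and 0 after scaling to the poly-A controls. Under that last scaling 99.2% of the calls over all genes were higher. Beside the 8.13-fold gap of Rragd on its main probe set these differences were small, and Ppp3r1 alone reached 2-fold. The counts by list that follow stand beside 34.4% of all genes higher and 36.5% lower. Among all genes left without the dimmest 40%, 5740 of 10916 were higher and 2966 lower.

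Among the Rag machinery, the 5 Ragulator genes had 2 lower, none higher and 3 that did not pass, and their median difference was -0.18. The lowest of them was Lamtor2, at 7.74, 7.43 and 7.38 in CD24+CD29+ cells against 8.02, 7.99 and 8.03 in CD24-CD29- cells, a difference of -0.49 (SE 0.09). GATOR1, which turns RagA and RagB off, had 2 genes higher and 1 lower. The lower one was Depdc5, at -0.33 (SE 0.06), while 1 of its 6 probe sets passed as higher. GATOR2, which opposes GATOR1, had 3 of 5 genes higher and 2 that did not pass. Its leading gene Mios read 9.13, 9.08 and 9.18 in CD24+CD29+ cells against 8.40, 8.39 and 8.44 in CD24-CD29- cells, or 1.65-fold higher. Of KICSTOR, which places GATOR1 on the lysosome, 2 of 4 genes were measured and neither passed, Itfg2 having the larger difference, -0.16 (SE 0.07).

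Of 9 genes that report amino acids to the Rag GTPases, 4 were higher, 4 lower and 1 did not pass. Within the sestrins, inhibitors of GATOR2, Sesn3 was 1.78-fold higher, at 12.24, 12.17 and 12.22 in CD24+CD29+ cells against 11.38, 11.40 and 11.34 in CD24-CD29- cells. Its relatives Sesn1 and Sesn2 were lower, by differences of -0.47 (SE 0.04) and -0.25 (SE 0.05), while 1 of the 4 probe sets of Sesn1 passed as higher. These sestrins were named after their values were seen. Of 3 other Rag regulators 1 was higher and 1 lower. The lower one was Sh3bp4, a negative regulator of the Rag GTPases, at -0.37 (SE 0.08).

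Of 5 mTORC1 genes 3 were higher, none lower and 2 did not pass. The kinase gene Mtor read 9.98, 9.97 and 10.02 in CD24+CD29+ cells against 9.14, 9.15 and 9.23 in CD24-CD29- cells, or 1.75-fold higher, although 1 of its 3 probe sets passed as lower. Rptor, which encodes the subunit that docks on the Rag GTPases, was 1.51-fold higher. Of the 5 genes of the TSC complex and Rheb, 2 were higher, and Tsc2, a brake on Rheb, was 1.64-fold higher, while Rheb itself differed by 0.03 (SE 0.05) and did not pass. Of 7 AMPK subunit genes 3 were higher and 2 lower, with Prkab2 1.61-fold lower, at 8.81, 8.78 and 8.76 in CD24+CD29+ cells against 9.48, 9.39 and 9.53 in CD24-CD29- cells.

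Among 13 measured genes of proteins that act on TFEB, 8 were higher and 2 lower. This list was bright, and 65.9% of calls were higher among all genes left without the dimmest 40%. Ppp3r1, the regulatory subunit of calcineurin, the phosphatase that releases TFEB to the nucleus, read 12.81, 12.83 and 12.79 in CD24+CD29+ cells against 11.74, 11.70 and 11.71 in CD24-CD29- cells. The arrays were widely apart, by 1.09 (SE 0.04), or 2.14-fold higher. Xpo1, the exportin that returns TFEB to the cytoplasm, was 1.79-fold higher, the 14-3-3 gene Ywhag 1.66-fold, and Mcoln1, the lysosomal calcium channel upstream of calcineurin, 1.51-fold.

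Genes reported as TFEB targets, mostly in human cells, were mixed in direction. Of 38 listed, 35 were measured: 16 were higher, 9 lower and 10 did not pass. Their median difference was 0.09, beside -0.04 over all genes, and none reached 2-fold. Without the dimmest 40% of genes, which leaves 31 of the 35, 65.2% of their calls were higher. Over all genes left, 65.9% of calls were higher, and the median was 0.15. After scaling to the poly-A controls all 35 were higher, as were 17902 of all 18193 genes. The lysosomal enzyme genes Naglu and Neu1 were higher by 1.80-fold and 1.76-fold, although 1 of 3 Neu1 probe sets passed as lower. Naglu read 7.84, 7.64 and 7.63 in CD24+CD29+ cells, against 6.90, 6.81 and 6.85 in CD24-CD29- cells. The protease gene Ctsf was 1.66-fold higher, Atg9b 1.53-fold, although its other probe set passed as lower, and Mcoln1, which is in both lists, 1.51-fold. The lowest difference in the list was -0.50 (SE 0.04), for the proton pump subunit gene Atp6v1c1, chosen after its value was seen.

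**Figure D5:**
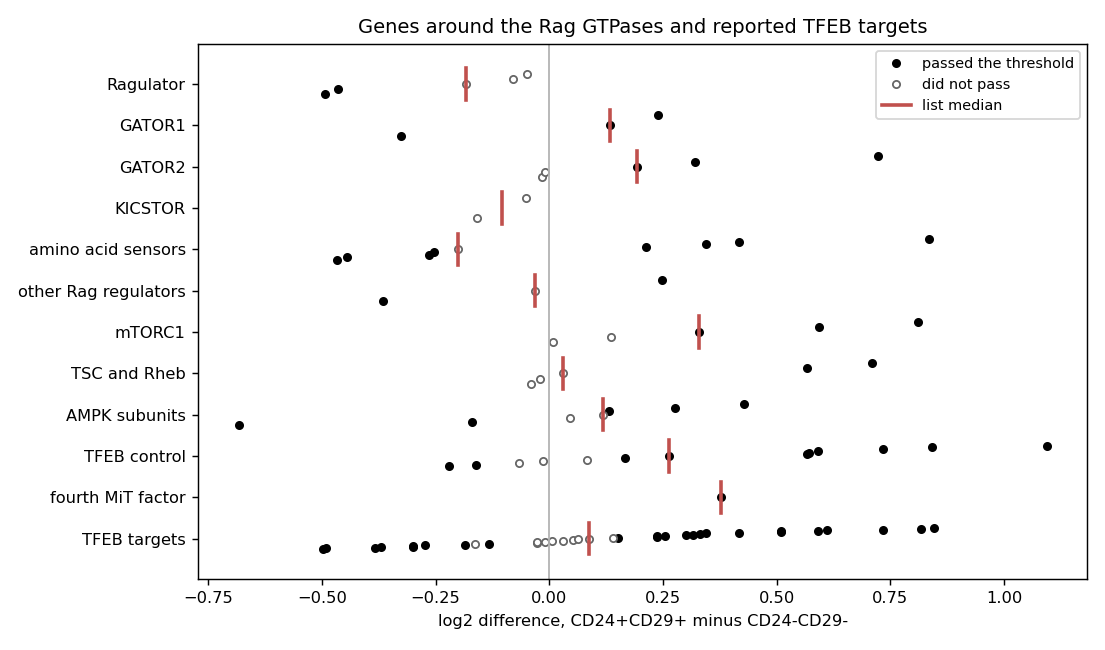
Log2 difference, CD24+CD29+ minus CD24-CD29-, of each measured gene in 12 lists around the Rag GTPases, with filled points for genes past the threshold, open points for the others and a vertical line at the list median. On the deposited scale, Ragulator genes lie at or below -0.05 and mTORC1 genes at or above 0.01. The reported TFEB targets lie between -0.50 and 0.85 on that scale. After scaling to the poly-A controls every gene shown is higher, as are 17902 of all 18193 genes.

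Rragd was set beside the genes whose profile over the 6 arrays, centred on its own mean, differed least from it. The root mean square difference was 0.07 for Ecrg4, 0.08 for Rtn1, 0.09 for Klhl13, 0.10 for Reep1 and 0.12 for Adgrf5. All 5 were lower in CD24+CD29+ cells, by 7.48-fold for Ecrg4, 8.32-fold for Rtn1, 9.07-fold for Klhl13, 8.78-fold for Reep1 and 8.95-fold for Adgrf5. With 2 groups of arrays, this likeness is nearly that of the size of the difference.

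Markers of other cells differed between the same arrays, and their counts stand beside 34.4% of all genes higher and 36.5% lower. Without the dimmest 40% of genes, 5740 of 10916 were higher and 2966 lower, so calls of dim genes were mostly lower. Under the lower quartile in both groups lay 3 of 11 melanocyte, 3 of 13 macrophage and osteoclast and 1 of 5 lymphocyte markers. Melanocyte markers, cells in which Mitf is prominent, were lower for 9 of 11, none was higher, and their mean level was 6.42 to 6.47 on CD24+CD29+ arrays and 6.70 to 6.78 on CD24-CD29- arrays. Of these, Tyrp1, Dct and Mlana stayed at or below 5.46 on every array. Pmel read 6.71, 6.74 and 6.65 in CD24+CD29+ cells against 7.07, 7.10 and 7.10 in CD24-CD29- cells, and Sox10 was bright, at 11.28, 11.25 and 11.28 against 11.37, 11.44 and 11.44. Kit, which other cells also express, was 1.98-fold lower, at 9.79, 9.84 and 9.76 in CD24+CD29+ cells against 10.83, 10.80 and 10.73 in CD24-CD29- cells. Macrophage and osteoclast markers were lower for 7 of 13 and higher for 1, with a mean of 6.42 to 6.47 on CD24+CD29+ arrays and 6.64 to 6.68 on CD24-CD29- arrays. Of their defining genes, Ptprc and Itgam were at or below 5.11 on every array, under the lower quartile. Csf1r was not: it read 6.67, 6.92 and 6.67 in CD24+CD29+ cells against 7.59, 7.70 and 7.60 in CD24-CD29- cells, or 1.84-fold lower. Cd14 was bright, at 12.51, 12.48 and 12.51 in CD24+CD29+ cells against 12.76, 12.78 and 12.78 in CD24-CD29- cells, and Acp5 was the higher one, by 1.43-fold. Adgre1 was lower by 1.27-fold. Lymphocyte markers were lower for 4 of 5, with a mean of 5.40 to 5.56 on CD24+CD29+ arrays and 5.81 to 5.90 on CD24-CD29- arrays. Fibroblast markers were higher for 10 of 10, led by Col1a2 (4.07-fold) and Col3a1 (3.31-fold), with a mean of 9.38 to 9.44 on CD24+CD29+ arrays and 8.47 to 8.49 on CD24-CD29- arrays. Of 6 endothelial markers 1 was higher and 1 lower, and of 3 measured adipocyte markers 1 was higher, Fabp4, for which 2 of 4 probe sets passed in the opposite direction. RMA values have no zero, so none of these markers can be called absent, and their part in the differences of the members was not tested.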

How the data were processed

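RNA of 6 samples of sorted cells was hybridised to Affymetrix Mouse430_2 arrays. Per the labels and the submitters' processing notes, the deposited log2 values were made by the authors with RMA and Partek, with no version, setting or order given in the sources used here. RMA subtracts background, normalizes between arrays and summarises probes, which compresses differences of dim genes. The values were used as deposited.

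Of 45101 probe sets, 64 controls were left out of the tests. The others had exactly 1 symbol (34945), several (932) or none (9160) in the platform annotation, and Entrez identifiers required no symbol update against RefSeq (GRCm38.p6). Of a gene's single-symbol probe sets the one of highest mean was used, _x_at ones only where no other existed, giving 18193 genes. The comparison of CD24+CD29+ with CD24-CD29- used the limma package (3.58.1, R 4.3.3; lmFit and eBayes without a block), with Benjamini-Hochberg adjustment over all genes and, in a separate fit, over all 45037 probe sets. The fit was checked on simulated data. The number of arrays limits the precision (median SE 0.06). The members and lists were chosen with earlier results of these data known. In each pathway list and in the TFEB target list, every gene that passed and differed at least 1.5-fold is named, or otherwise the one with the largest absolute difference; marker genes were named after their values were seen. Alternatives covered scaling, probe sets, dim genes, the variance model, the replicate number and each array.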

Additional observations from a re-analysis of the deposited data

How the results depend on the processing

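The count of genes past the threshold stayed within 1.5 times of that reported under every alternative except the size criterion. Scaling to the poly-A controls raised it to 18050, of which 99.2% were higher, in place of 48.5%. Requiring at least a 2-fold difference left 849 of 12889 genes, 1 of 7 member genes, 2 of 11 member probe sets, 1 of 39 pathway genes and 0 of 25 TFEB target genes. Leaving out each array in turn gave 11758 to 12407 genes, 7 or 8 member genes, 10 to 14 member probe sets, 35 to 39 pathway genes and 24 to 26 TFEB target genes. Over 15 alternatives, Rraga, Rragc and Rragd kept their direction and their call. Scaling to the poly-A controls turned Flcn to 0.64, Fnip1 to 0.52, Fnip2 to 1.16, Tfeb to 1.03 and Mitf to 0.92. The near-zero difference of Fnip2 also changed sign to 0.047 with median centring, 0.035 without CD24+CD29+ replicate 2 and 0.062 without CD24-CD29- replicate 2, and over the arrays left out it ran from -0.056 to 0.062. Tfe3 lost its call under quantile normalization and cyclic loess, and Tfeb and Fnip2 gained one. Under the brightest probe set Flcn was -1.24, and with the mean of probe sets Rragd was -1.26. The cause of these changes was not tested. With the replicate number as a block, 12867 genes, 7 member genes, 12 member probe sets, 40 pathway genes and 25 TFEB target genes passed, and no member call changed. Deviations of same-numbered arrays correlated at 0.22, -0.05 and 0.04 over genes, and not every array correlated best with its own number, so the numbers were not taken as pairs.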
